A study of Mus musculus with 12 samples.

Results

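The genes examined here are 10 mouse genes of peptide signalling: the neuropeptide precursors Cck, Npy, Penk and Sst, the granins Chgb, Scg2 and Vgf, and the receptors Cckar, Cckbr and Crhr1. They were chosen by name, with earlier results of these data known, and each symbol matched 1 of the 55401 gene identifiers in the count tables. Of the 10 genes, 9 had enough reads to be tested among 19378 genes, and Cckar did not. RNA came from mouse cerebellum in 12 libraries, in 3 groups of 4: wild-type mice given dimethyl sulfoxide (WT DMSO), heterozygous Atxn1 154Q/2Q knock-in mice given DMSO (Het DMSO), and the same knock-in given the compound Hit 2 in DMSO (Het Hit 2). The knock-in is a model of spinocerebellar ataxia type 1 (SCA1), and the expanded allele replaces an endogenous one, so all cells of the animal carry it. All mice, wild type included, received daily intraperitoneal injections in courses of 5 days, with a rest between them, from 18 weeks of age, and tissue was taken at 20 weeks. Hit 2 was given from a solution of 25 mg/ml, and the labels give no structure for it. Libraries are named by the number in their label. Nothing in the labels says that each number is a separate animal, so p-values measure the spread between these samples.

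Neuropeptides are made as precursors, cut to size in dense-core vesicles and released to act on G protein-coupled receptors, usually more slowly and over a longer range than fast transmitters. Granins are acidic proteins of those vesicles that help to package the cargo and are themselves cut into peptides. Cholecystokinin, the product of Cck, acts through the receptors encoded by Cckar and Cckbr, and in SCA1 mouse models it has been tied to protection of Purkinje cells, the output neurons of the cerebellar cortex. The cerebellum also receives corticotropin-releasing hormone from climbing fibres, which acts on the receptor encoded by Crhr1.

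Between 15855751 and 45265719 reads per library were assigned to genes. Markers of granule and Purkinje cells were present in all 12 libraries, but at very unequal levels. The summed level of 6 granule markers was 62.2 CPM (reads scaled to the size of the library) in library 411 of the Het DMSO group and 2867 to 6276 CPM in the other 11, and that of 8 Purkinje markers was 788 CPM in 411 against 3287 to 7708 CPM. The summed level of 10 markers of midbrain and brainstem neurons was 418 CPM in 411, 143 CPM in 410, 82.8 CPM in 430, 60.0 CPM in 425 and 59.8 CPM in 413, against 7.68 to 50.3 CPM in the other 7. The median over the 12 libraries reached 1 CPM for only 3 of these 10 markers. Oligodendrocyte markers also stood high in 411 (6006 CPM) and 410 (5054 CPM), against 1111 to 3138 CPM elsewhere, as did microglial markers (108 and 81.6 CPM, against 36.6 to 61.9 CPM). Choroid plexus markers were at 1876 CPM in 429, 1058 in 425, 917 in 410, 663 in 413 and 154 in 411, against 8.07 to 34.04 CPM in the other 7. Reads outside any gene on the counted strand made up 45.4% of library 409 and 44.7% of 411, against 51.0% to 54.6% in the others. Xist, a mark of female tissue, was at 1393 and 1464 CPM in WT libraries 425 and 426 and at most 0.290 CPM elsewhere. Neither knock-in group thus held a library with high Xist, and the fit had no term for sex. In bulk tissue, fewer cells of a type and less RNA per cell cannot be told apart.

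Promoter sequence of 7 of the 10 genes was found in the RefSeq table for GRCm38.p6, as windows from 250 bases before to 50 after the start site; Cckar, Penk and Vgf had no entry. The stretches below are shown because the cyclic AMP response element, a short palindrome bound by CREB-family factors, is a known feature of peptide and granin promoters. The full palindrome TGACGTCA was found in 3 of the 7 windows (Scg2, Chgb and Sst), against 1.79% of all 32851 windows in the table. The shorter TGACG, searched on both strands and contained in the palindrome, was found in 4 of the 7 (these 3 and Cck), against 20.8% of all windows. Cckbr, Npy and Crhr1 held neither. Capitals mark the match, read 5′ to 3′ along each gene's strand. Scg2 is at chr1:79440067-79440134 on the minus strand, Chgb at chr2:132781530-132781597 on the plus strand, Sst at chr16:23890865-23890932 on the minus strand and Cck at chr9:121495717-121495781 on the minus strand.
Scg2: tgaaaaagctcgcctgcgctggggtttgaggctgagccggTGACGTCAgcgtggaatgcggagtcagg
Chgb: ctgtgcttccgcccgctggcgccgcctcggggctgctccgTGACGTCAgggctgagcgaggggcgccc
Sst: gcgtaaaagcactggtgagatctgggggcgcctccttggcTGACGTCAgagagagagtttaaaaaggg
Cck: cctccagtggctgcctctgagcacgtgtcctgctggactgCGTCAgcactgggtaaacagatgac
The first base of the match lay 68 bases before the start site in Scg2, 72 in Chgb, 48 in Sst and 47 in Cck. Of the genes with the palindrome, Scg2 and Sst were highest in library 411 and Chgb was lowest there. That library also stood apart in its cell type markers, as given above. The part of the motif in these levels was not tested.

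Levels were compared between genes in the wild-type group as RPKM, reads scaled to exon length and library size. Chgb was highest at an RPKM of 157 ± 9.68 (SD, n = 4), followed by Crhr1 at 45.2 ± 3.08 (SD, n = 4), Scg2 at 37.9 ± 6.35 (SD, n = 4) and Penk at 28.8 ± 0.680 (SD, n = 4). Cck stood at 9.49 ± 3.24 (SD, n = 4), Npy at 8.42 ± 1.16 (SD, n = 4), Vgf at 5.71 ± 2.80 (SD, n = 4) and Sst at 4.94 ± 4.68 (SD, n = 4). The cholecystokinin receptors were lowest, at 0.297 ± 0.325 (SD, n = 4) for Cckbr and 0.0326 ± 0.0437 (SD, n = 4) for Cckar. The wild-type ranges of Crhr1 and Scg2 overlapped, as did those of Cck and Npy, Npy and Vgf, Vgf and Sst, and Cckbr and Cckar. Chgb lay above Crhr1, Scg2 above Penk, Penk above Cck and Sst above Cckbr in every wild-type library.

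**Figure D1:**
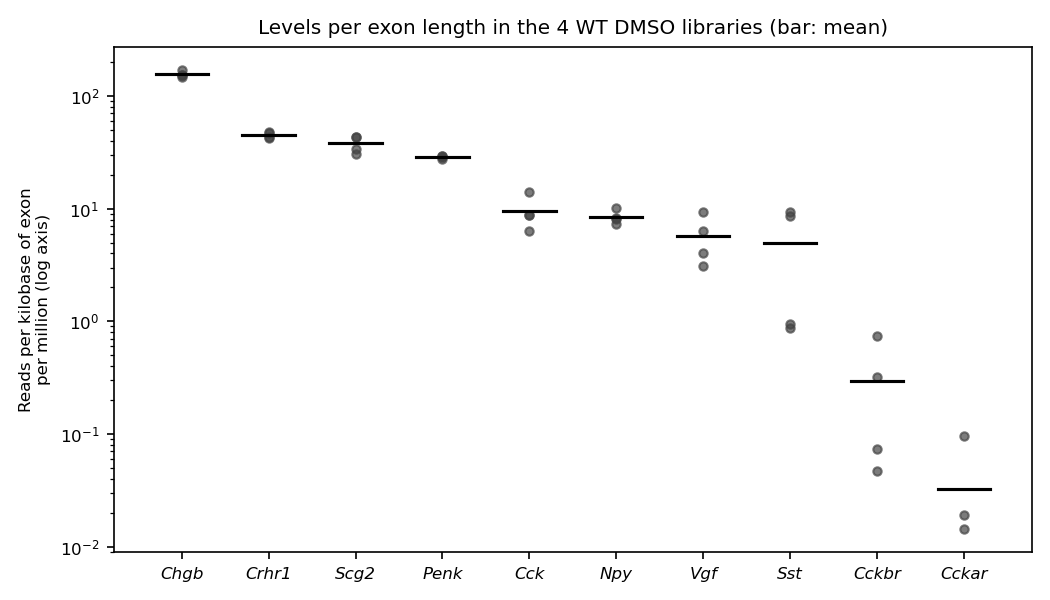
RPKM (log axis) of the 10 genes in the 4 WT DMSO libraries, points for libraries and a bar for the mean; a Cckar value of 0 in library 431 cannot be drawn. Chgb leads at a mean of 157, and Cckbr and Cckar are last.

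Het DMSO against WT DMSO asks what goes with the knock-in allele, but sex and genotype are partly confounded. High Xist was found only in WT libraries 425 and 426. Npy and Cck had the lowest levels relative to wild type, at group means of 2.06 against 4.77 CPM and 5.86 against 12.4 CPM, but no gene of the set passed the threshold. Below, this comparison is called the genotype contrast, and differences are log2 fold changes. Of the 9 tested genes, 0 had an adjusted p under 0.05 in edgeR's quasi-likelihood test, where 0.00516% of all genes did. At an unadjusted p under 0.05 there were 3 of 9, Npy, Cck and Penk, each lower in Het DMSO, against 7.11% of all genes in either direction, 4.77% higher and 2.34% lower. DESeq2 placed 1 of the 9, Npy, past the threshold, where it placed 0.205% of all genes, and gave 2 of 9 (Npy and Cck) an unadjusted p under 0.05, against 5.46% of all genes. The median log2 fold change of the 9 was -0.26, beside 0.052 over all genes tested, and -0.39 beside -0.0051 without 409 and 411.

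Het Hit 2 against Het DMSO asks what the compound did in knock-in mice, and is called the treatment contrast. None of the 9 genes passed (edgeR adjusted p 0.898 or higher), as with 0% of all genes, and 0 of 9 had an unadjusted edgeR p under 0.05 against 1.55% of all genes. DESeq2 also placed 0 of 9 past the threshold (0% of all genes), with 1 (Npy) at an unadjusted p under 0.05 against 1.51% of all genes. The median log2 fold change of the 9 was 0.10, beside -0.043 over all genes, and 0.44 beside 0.0094 without 409 and 411. No gene of the set was separated without overlap, where 0.635% of all genes were higher and 0.392% lower. The third contrast, Hit 2-treated knock-in against wild type, likewise gave 0 of 9 (edgeR), where 0.00516% of all genes passed, and 0 of 9 at an unadjusted p under 0.05 where 1.71% of all genes did. DESeq2 gave 0 of 9 there, against 0.0989% of all genes, and 1 (Npy) at an unadjusted p under 0.05, against 1.27% of all genes. The median was -0.0080, beside 0.021 over all genes. The 3 comparisons share groups with each other, so their values are not independent.

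**Figure D2:**
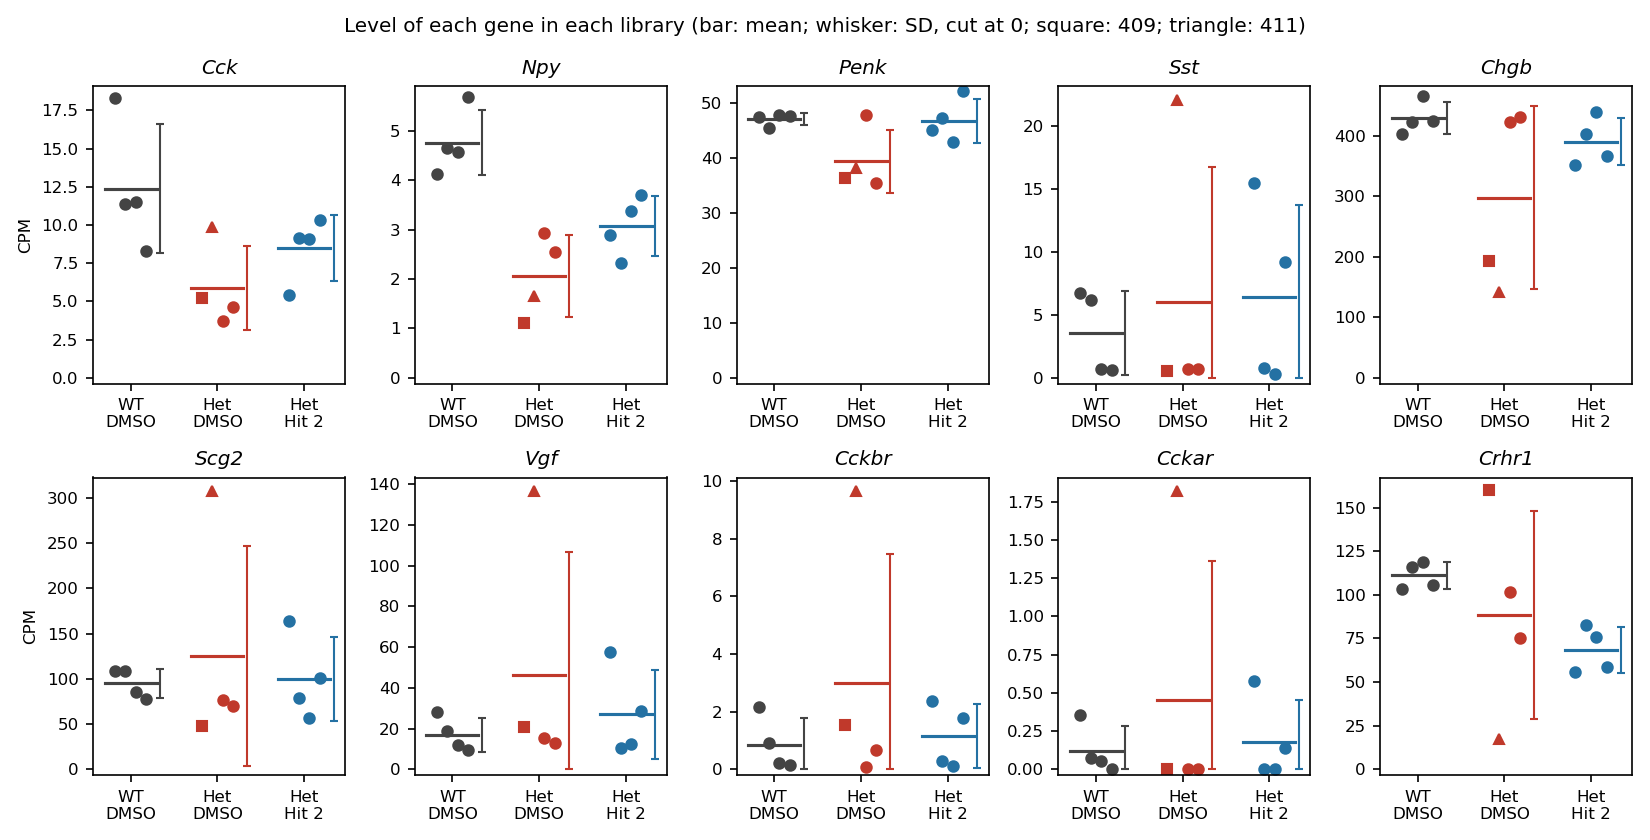
CPM (linear axes) of the 10 genes in each library, by group, with a bar for the group mean and a whisker for the SD cut at 0; squares mark library 409 and triangles 411. All 4 WT values of Npy lie above all Het values, and library 411 is the highest point for Sst, Scg2, Vgf, Cckbr and Cckar.

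Cck (ENSMUSG00000032532, chromosome 9) codes for the precursor of cholecystokinin. It was measured at 18.3 CPM in library 413, 11.4 in 425, 11.5 in 426 and 8.33 in 431 of the WT DMSO group. In Het DMSO it was 5.20 CPM in 409, 9.89 in 411, 3.73 in 420 and 4.63 in 429. In Het Hit 2 it was 5.39 CPM in 410, 9.14 in 421, 9.08 in 422 and 10.3 in 430. Het DMSO libraries 409, 420 and 429 thus lay below all wild-type libraries and below all Het Hit 2 libraries, while 411 lay inside both ranges. In the genotype contrast its difference was -1.08 (SE 0.33; adjusted p 0.616 by edgeR; p 0.0571 by exact permutation, two-sided). Without 411 this became -1.43 (edgeR adjusted p 0.258), without 409 and 411 -1.57 (edgeR adjusted p 0.209), and without the highest wild-type library, 413, -0.83 (edgeR adjusted p 0.689). The treatment contrast gave 0.53 (SE 0.33; adjusted p 0.898 by edgeR; p 0.171 by exact permutation, two-sided), and 0.87 without 411 (edgeR adjusted p 0.630). The third contrast gave -0.54 (SE 0.33; adjusted p 1.000 by edgeR; p 0.114 by exact permutation, two-sided), and -0.30 without 413. Between 60 and 514 reads per library stood behind these levels, and in each comparison the difference did not pass the threshold. The Purkinje marker sum was also below wild type in all 4 Het DMSO libraries, at 788 to 6836 CPM against 7418 to 7708 CPM, and 4 of its 8 genes (Pcp2, Calb1, Car8 and Ppp1r17) were lower there without overlap, where 2.45% of all genes were. The sum of 5 astroglial markers was below wild type in all 4 as well, at 393 to 1057 CPM against 1169 to 1271 CPM. Among its genes Gdf10 and Slc1a3 were lower without overlap, and Aqp4, Gfap and Hopx overlapped. The part of any of these markers in the Cck levels was not tested.

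Npy (ENSMUSG00000029819, chromosome 6) codes for the precursor of neuropeptide Y, a peptide of inhibitory neurons in much of the brain. Its wild-type levels were 4.14 CPM in 413, 4.67 in 425, 4.58 in 426 and 5.69 in 431. In Het DMSO it was 1.11 CPM in 409, 1.67 in 411, 2.93 in 420 and 2.54 in 429, and in Het Hit 2 2.90 in 410, 2.32 in 421, 3.38 in 422 and 3.71 in 430. All 4 libraries of each knock-in group lay below all 4 wild-type libraries, while the knock-in groups overlapped each other. In the genotype contrast 1 of the 9 genes, Npy, was separated this way, where 2.45% of all genes were lower and 1.94% higher without overlap. In the third contrast it was 2 of 9, Npy and Crhr1, where 3.42% were lower and 2.9% higher. Its genotype contrast was -1.22 (SE 0.30; adjusted p 0.616 by edgeR). DESeq2 gave -1.23 (SE 0.30, adjusted p 0.0199), the only call of any of the 9 genes in the 19 alternatives to the edgeR fit. Without 409 and 411 it was -0.81 (edgeR adjusted p 0.378). The third contrast gave -0.63 (SE 0.29; adjusted p 1.000 by edgeR), and -0.64 without 409 and 411 (edgeR adjusted p 0.188). The exact two-sided permutation p against wild type was 0.0286 for each knock-in group, the smallest that 4 against 4 can give. The treatment contrast gave 0.59 (SE 0.29; adjusted p 0.898 by edgeR; p 0.143 by exact permutation, two-sided), and 0.17 without 409 and 411. These levels rest on 33 to 198 reads per library. The summed level of 6 markers of cerebellar interneurons and Golgi cells (all 6 at a median of at least 1 CPM) was 650 to 680 CPM in WT DMSO, 303 to 634 in Het DMSO and 482 to 614 in Het Hit 2, so that the sum was below wild type in all 8 knock-in libraries. The 6 genes did not share a direction: in the genotype contrast Kit was at -0.55, Pvalb at -0.53 and Tfap2b at -0.29, while Lgi2 was at 0.14, Grm2 at 0.18 and Slc6a5 at 0.033. With each gene given equal weight on the log2 scale, 409 and 420 lay within the wild-type range. The interneuron sum was not alone in this, since the Purkinje and astroglial sums were also below wild type in all 8 knock-in libraries. Astroglial markers summed to 1169 to 1271 CPM in WT DMSO, 393 to 1057 in Het DMSO and 723 to 1042 in Het Hit 2. The part of any of these markers in the Npy levels was not tested.

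Penk (ENSMUSG00000045573, chromosome 4) codes for proenkephalin, the source of the enkephalins. It varied least of the 9 tested genes, with an SD of log2 CPM over the 12 libraries of 0.18, beside a median of 0.32 over all genes tested. It stood at 47.4 CPM in 413, 45.3 in 425, 47.7 in 426 and 47.5 in 431 of WT DMSO, at 36.2 in 409, 38.1 in 411, 47.7 in 420 and 35.3 in 429 of Het DMSO, and at 42.7 to 52.1 CPM in Het Hit 2. In Het DMSO 3 libraries lay below the wild-type range and 420 lay just above its top. The fit gave -0.26 for the genotype contrast (SE 0.12; adjusted p 0.616 by edgeR; p 0.143 by exact permutation, two-sided), 0.25 for the treatment contrast (SE 0.12; adjusted p 0.898 by edgeR; p 0.114 by exact permutation, two-sided) and -0.0080 for the third contrast (SE 0.12; adjusted p 1.000 by edgeR).

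Sst (ENSMUSG00000004366, chromosome 16) codes for the precursor of somatostatin, an inhibitory peptide. It was the most variable gene of the set, with an SD of log2 CPM of 1.78, above 99.8% of all genes tested. It stood at 6.78 CPM in 413, 6.17 in 425, 0.680 in 426 and 0.627 in 431 of WT DMSO. In Het DMSO it was 0.567 CPM in 409, 22.1 in 411, 0.685 in 420 and 0.709 in 429, and in Het Hit 2 15.5 in 410, 0.791 in 421, 0.276 in 422 and 9.24 in 430. Each group therefore held libraries below 1 CPM and at least 1 library above 6 CPM, only 411 in Het DMSO, and the groups overlapped throughout. The high libraries were 411, 410, 430, 413 and 425, the same 5 that had the highest sums of midbrain and brainstem markers, from 418 CPM in 411 down to 59.8 CPM in 413. The next sum, 50.3 CPM in 429, was close to these, with Sst at 0.709 CPM. Slc17a6, a vesicular glutamate transporter gene, led that sum at 278 CPM in 411, 84.6 in 410, 48.5 in 430 and 37.5 in 413. In 425 it was led by Otx2 (22.9 CPM) and Th (17.5 CPM), with Slc17a6 at 15.6 CPM. Libraries 429 and 409, both with Sst below 1 CPM, had Slc17a6 at 22.3 and 14.9 CPM, and the other 5 had 0.253 to 2.47 CPM. Pax7, a transcription factor of the dorsal midbrain, was at 19.5 CPM in 411, 4.40 in 410, 4.22 in 430, 2.28 in 413 and 0 in 425. For the genotype contrast the fit gave 0.74 (SE 1.41; adjusted p 0.839 by edgeR) with all libraries and -2.44 without 411 (edgeR adjusted p 0.620). In the treatment contrast it had 0.10 (SE 1.40; adjusted p 0.986 by edgeR) with 3.26 without 411 (edgeR adjusted p 0.630) and -0.29 without 409 (edgeR adjusted p 0.970), and for the third contrast 0.84 (SE 1.41; adjusted p 1.000 by edgeR). Libraries 411 and 410 were also highest in oligodendrocyte and microglial markers, as given above. Choroid plexus markers were high in 425, 410 and 413, but highest in 429 (1876 CPM), where Sst was at 0.709 CPM. The part of any of these markers in the Sst values was not tested.

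**Figure D3:**
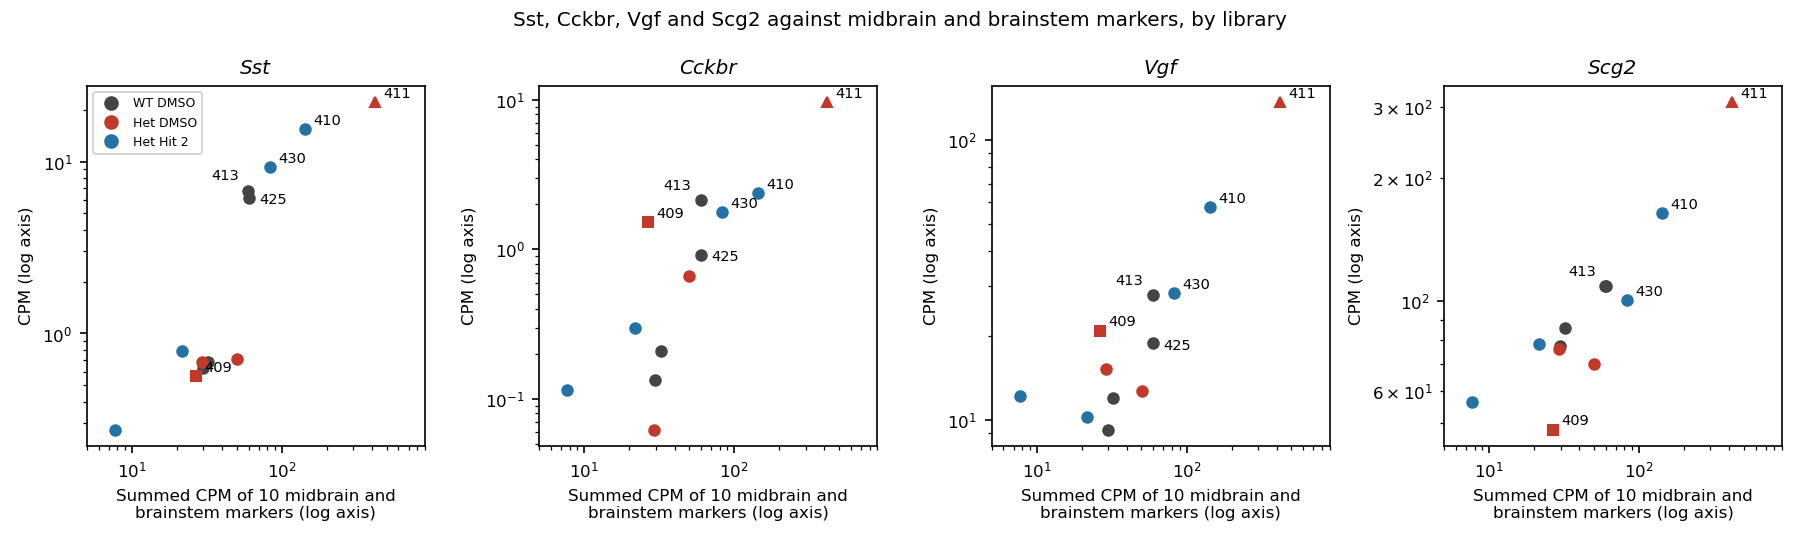
CPM of Sst, Cckbr, Vgf and Scg2 in each library against the summed CPM of 10 midbrain and brainstem markers (both axes log), coloured by group; the square is 409 and the triangle 411, and 413 and 425 coincide for Scg2. Library 411, at a marker sum of 418 CPM, is the highest in all 4 panels and 410, at 143 CPM, is second.

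Among the granins, Scg2 (ENSMUSG00000050711, chromosome 1), which codes for secretogranin II, stood at 109 CPM in 413, 109 in 425, 85.9 in 426 and 77.5 in 431 of WT DMSO. In Het DMSO it was 48.3 CPM in 409, 308 in 411, 76.4 in 420 and 69.99 in 429, and in Het Hit 2 164 in 410, 78.4 in 421, 56.3 in 422 and 100.5 in 430. Library 411 was above every other library and the remaining Het DMSO values lay below all wild-type ones. The genotype contrast stood at 0.40 (SE 0.52; adjusted p 0.760 by edgeR) and -0.54 without 411 (edgeR adjusted p 0.620), with -0.33 in the treatment contrast (SE 0.52; adjusted p 0.898 by edgeR), which was 0.59 without 411, and 0.068 in the third (SE 0.52). Vgf (ENSMUSG00000037428, chromosome 5), a granin-like gene induced by neurotrophins, showed the same top library: 137 CPM in 411, 57.6 in 410, 28.4 in 430 and 27.9 in 413, with the other 8 libraries between 9.22 and 20.9 CPM. Its genotype contrast was 1.45 (SE 0.79; adjusted p 0.616 by edgeR) and -0.036 without 411 (edgeR adjusted p 0.980). The treatment contrast of Vgf was -0.78 (SE 0.78; adjusted p 0.898 by edgeR) and 0.69 without 411, and the third was 0.67 (SE 0.79). The part of the midbrain and brainstem markers in the Scg2 and Vgf levels was not tested.

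Chgb (ENSMUSG00000027350, chromosome 2), which codes for chromogranin B, had its lowest levels in libraries 409 and 411. It was at 403 CPM in 413, 423 in 425, 466 in 426 and 424 in 431 of WT DMSO and at 352 in 410, 403 in 421, 439 in 422 and 366 in 430 of Het Hit 2. In Het DMSO, libraries 420 and 429 stood at 423 and 431 CPM, within the wild-type range, and libraries 409 and 411 at 193 and 142 CPM, below every other library. For the genotype contrast the fit gave -0.53 (SE 0.30; adjusted p 0.616 by edgeR; p 0.257 by exact permutation, two-sided), and -0.016 (SE 0.096; adjusted p 1.000 by edgeR) without 409 and 411. The treatment contrast gave 0.39 (SE 0.30; adjusted p 0.898 by edgeR), and -0.13 without 409 and 411, while the third contrast was -0.14 (SE 0.30). Library 411 had the lowest granule marker sum of the 12, at 62.2 CPM. In 409 the granule markers were uneven. Fat2 was at 4022 CPM, above the 2093 to 2494 CPM of wild type, and Cbln3 (1048 CPM) and Cbln1 (648 CPM) also lay above all wild-type libraries. Gabra6 (230 CPM), Neurod1 (135 CPM) and Etv1 (194 CPM) lay below all wild-type libraries. The part of these markers in the Chgb levels was not tested. Over the 10 libraries without 409 and 411 the SD of log2 CPM of Chgb was 0.12, lower than that of the other 8 tested genes, and over all 12 it was 0.53.

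Both cholecystokinin receptors had few reads in most libraries. Cckbr (ENSMUSG00000030898, chromosome 7), the receptor form most common in the brain, stood at 2.14 CPM in 413, 0.919 in 425, 0.209 in 426 and 0.134 in 431 of WT DMSO. In Het DMSO it was 1.53 CPM in 409, 9.64 in 411, 0.0622 in 420 and 0.667 in 429, and in Het Hit 2 2.37 in 410, 0.297 in 421, 0.115 in 422 and 1.78 in 430. Reads ranged from 1 in 420 to 191 in 411, and the groups overlapped. The genotype contrast stood at 1.80 (SE 1.24; adjusted p 0.627 by edgeR) and -0.056 without 411 (edgeR adjusted p 0.985). The treatment contrast was -1.41 (SE 1.24; adjusted p 0.898 by edgeR) and 0.42 without 411, and the third was 0.38 (SE 1.25). The part of the midbrain and brainstem markers in the Cckbr levels was not tested. Cckar (ENSMUSG00000029193, chromosome 5), the receptor form best known from the gut and pancreas, had 64 reads in all, of which 36 (1.82 CPM) came from library 411. It had 10 reads each in 410 and 413, 3 each in 425 and 430, and 2 in 426, while 6 libraries had 0 reads. A count of 0 allows up to 3 reads, or 0.0690 to 0.187 CPM at the depths of these libraries, so lower levels were not detectable. These limits cover counting error only.

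Crhr1 (ENSMUSG00000018634, chromosome 11) codes for the receptor for corticotropin-releasing hormone. Its wild-type levels were 104 CPM in 413, 116 in 425, 119 in 426 and 106 in 431. In Het Hit 2 it was lower in each library, at 55.5 CPM in 410, 82.6 in 421, 75.7 in 422 and 58.8 in 430. Het DMSO held both the highest and the lowest library of all 12, at 160 CPM in 409 and 17.1 in 411, with 101.4 in 420 and 75.0 in 429. The third contrast was -0.70 (SE 0.45; adjusted p 1.000 by edgeR), with an exact two-sided permutation p of 0.0286, the smallest possible. Any gene without overlap reaches that p, and of all genes 3.42% were lower and 2.9% higher in this way. Without 409 and 411, which are not in this comparison but share the fit's estimate of the spread, the third contrast was -0.72 (SE 0.14; adjusted p 0.0637 by edgeR). The genotype contrast gave -0.33 (SE 0.45; adjusted p 0.772 by edgeR) with 0.040 without 411 and -0.79 without 409. The treatment contrast gave -0.38 (SE 0.45; adjusted p 0.898 by edgeR), with -0.76 without 411 (edgeR adjusted p 0.630) and 0.078 without 409 (edgeR adjusted p 0.972). The Purkinje marker sum was also lower in Het Hit 2, at 3287 to 6394 CPM against 7418 to 7708 CPM in WT DMSO, with all 8 at a median of at least 1 CPM. Of the 8, all but Slc1a6 were lower without overlap, where 3.42% of all genes were, and none passed the threshold. The astroglial sum was also below wild type, at 723 to 1042 CPM against 1169 to 1271 CPM. Granule markers were at 2867 to 4807 CPM against 4374 to 4985 CPM. In Het DMSO the Purkinje sum was 788 CPM in 411 and 6836 CPM in 409. Of the latter, 4659 CPM was Itpr1, which lay within its wild-type range, as did Rgs8 (963 CPM) and Slc1a6 (123 CPM). Pcp2 (110 CPM), Calb1 (139 CPM), Car8 (479 CPM), Ppp1r17 (39.5 CPM) and Gad1 (323 CPM) lay below all wild-type libraries in 409, where Crhr1 was highest. The part of these markers in the Crhr1 levels was not tested.

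**Figure D4:**
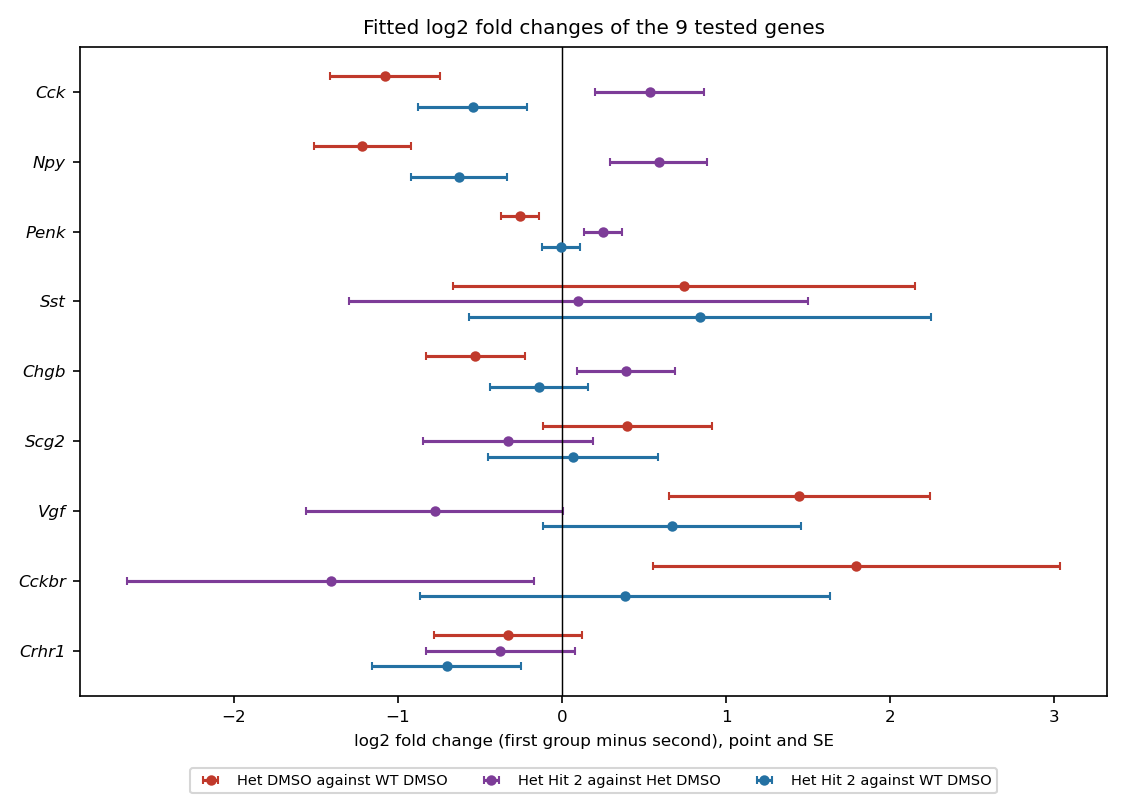
Fitted log2 fold changes (points) with their SE (bars) of the 9 tested genes in the 3 comparisons, first group minus second. Npy and Cck lie lowest in the genotype contrast at -1.22 and -1.08, and Sst and Cckbr have the widest errors.

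The wider peptide system was read from lists of 28 other precursor genes, 15 genes of vesicle cargo, processing and release, and 24 other receptors and binding proteins, of which 14, 15 and 20 were tested. In each of the 3 comparisons 0 genes of each list passed the threshold in edgeR. At an unadjusted p under 0.05 in the genotype contrast there were 0 of 14 precursors, 1 of 15 processing genes (Scg5, higher) and 4 of 20 receptors (3 higher, 1 lower), against 7.11% of all genes (4.77% higher, 2.34% lower). The treatment contrast had 0, 0 and 1 (lower) of them, against 1.55% of all genes, and the third 0, 0 and 2 (higher), against 1.71%. The median log2 fold changes of the 3 lists in the genotype contrast were 0.32, 0.38 and 1.09, beside 0.052 over all genes. Without 411 they were -0.65, 0.13 and -0.28, beside 0.0070, so that the medians of the precursors and receptors had the opposite sign. In the treatment contrast they were -0.42, -0.21 and -0.61, beside -0.043, and without 411 0.84, -0.0033 and 0.24, beside -0.00081. In the third contrast they were 0.19, 0.14 and 0.38, beside 0.021. Receptor genes at high levels in 411, chosen after their values were seen, were Oprm1 (26.2 CPM, against 0.246 to 0.751 in the other Het DMSO libraries), Tacr3 (14.0 CPM, against 0 to 0.0622) and Oprl1 (82.5 CPM, against 8.76 to 13.3). Other receptor genes were lowest in 411 within that group, among them Vipr1 (0.908 CPM, against 5.17 to 13.8), Vipr2 (2.12 CPM, against 8.885 to 14.8) and Sstr3 (9.29 CPM, against 15.3 to 45.3). Library 411 also had the highest midbrain and brainstem marker sum, 418 CPM, whose part in these levels was not tested. The precursors with the highest level per length were Apln, Npff, Nucb2 and Nmb, at a mean RPKM over the 12 libraries of 4.11, 3.47, 3.24 and 2.61. Apln was at an RPKM of 11.4 in 411 and 2.12 to 6.42 elsewhere, and in the WT group Npff (3.56 ± 0.454, SD, n = 4) had a higher mean than Apln (2.96 ± 0.972, SD, n = 4). Many processing genes were far more abundant, led by Cpe (carboxypeptidase E, which trims peptide ends) at an RPKM of 208, Vamp2 at 121, Pcsk1n at 95.4 and Scg3 at 70.1. Not all were, since Pcsk1 lay between 1.65 (in 409) and 5.20 (in 411). In the WT group Scg3 (80.7 ± 5.71, SD, n = 4) had a higher mean than Pcsk1n (74.1 ± 11.1, SD, n = 4). The leading receptors were Adcyap1r1, the receptor for the peptide PACAP, at an RPKM of 30.1, Npr2 at 21.1, Ntsr2 at 16.8 and Sstr3 at 4.88. In the WT group Adcyap1r1 (20.5 ± 3.58, SD, n = 4) and Npr2 (20.4 ± 1.01, SD, n = 4) were level, and Adcyap1r1 reached 51.2 in 409 and 53.3 in 411. Cpe averaged 464 ± 26.6 CPM in the WT group, 644 ± 295 CPM in the vehicle-treated knock-in and 523 ± 80.2 CPM in the Hit 2-treated one (each SD, n = 4), with 1085 CPM in 411 and 470 to 530 CPM in the other 3 Het DMSO libraries. Its genotype contrast was 0.47 (SE 0.25; adjusted p 0.616 by edgeR), and 0.12 without 411.

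The genes whose levels followed Cck most closely over the 12 libraries, by Pearson's r of log2 CPM among 16623 genes with a mean of at least 1 CPM, were Gm15506 (r = 0.87, Spearman's rho 0.74), Muc3a (r = 0.86, rho 0.79), Ebf2 (r = 0.85, rho 0.81), Vcpkmt (r = 0.84, rho 0.85) and Kcnip1 (r = 0.84, rho 0.73). Over the 10 libraries without 409 and 411 the r of these 5 lay between 0.87 and 0.90. They were picked as the highest of many and are a description only, and the libraries differ in depth and tissue makeup as well as in group. Ebf2, a transcription factor gene, averaged 10.6 ± 3.16 CPM in the WT group, 6.999 ± 4.583 CPM in the vehicle-treated knock-in and 9.55 ± 0.944 CPM in the Hit 2-treated one (each SD, n = 4). Muc3a, a mucin gene, had the widest range between groups of the 5, from 11.99 ± 2.61 CPM (SD, n = 4) in WT DMSO to 3.85 ± 1.31 CPM (SD, n = 4) in Het DMSO. Its genotype contrast was -1.64 (edgeR adjusted p 0.0733), and -1.82 without 409 and 411 (edgeR adjusted p 0.0199). The third contrast of Muc3a was -0.9991 (edgeR adjusted p 1.000), and -1.01 without 409 and 411 (edgeR adjusted p 0.0327). For Ebf2 the genotype contrast was -0.60 (edgeR adjusted p 0.616), and -1.16 without 409 and 411 (edgeR adjusted p 0.202).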

How the data were processed

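The authors deposited raw gene counts for each library, aligned with STAR 2.7.10a to GRCm39, with FastQC 0.11.9 named for quality control, per the submitters' processing notes. The annotation release is not given in the sources used here. Directional, ribosomal RNA-depleted libraries were read as pairs of 100 bases, per the labels' protocols. Counts of the strand opposite to read 1 were used (5.21% to 6.47% of gene reads lay on the other strand). Unassigned, multimapping, ambiguous and unmapped reads stayed out of library sizes. Of 55401 identifiers, 55141 matched GENCODE M21 (GRCm38), which gave symbols, chromosomes and exon lengths.

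Genes were kept by filterByExpr, scaled by TMM and tested two-sided with edgeR 4.0.16 (quasi-likelihood) in R 4.3.3, in 1 fit of all 12 libraries with 1 coefficient per group. Benjamini-Hochberg adjustment ran across the 19378 genes kept, and calls needed an adjusted p under 0.05. SE was derived from the F statistic. CPM used scaled library sizes, log2 CPM a prior count of 2, and SDs of log2 CPM a pseudocount of 0.5 CPM. Permutation tests enumerated 70 assignments. Labels give no batch and no pairing. Alternatives were DESeq2 1.42.0, RLE factors, no filter, unstranded counts, only the groups compared, libraries 409 and 411 or 425 and 426 left out, and each library left out. The fitting code was tested on simulated data. The 10 genes and the lists were chosen with earlier results of these data known. All 10 were described, with list genes past the threshold, the 4 most abundant per list and the 5 most like Cck; others were named after their values were seen.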

Additional observations from a re-analysis of the deposited data

Results flagged for a closer look

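Each of the 10 genes was checked in each group for 1 library far from the other 3, by the gap to the nearest library as a share of the group's range, against Dixon's critical value. Of 30 checks 6 passed that limit, where chance gives about 1.5, but 5 of the 6 come from the same library and are not separate events. The Cckar check passes by construction, since the other 3 libraries of its group had 0 reads. In Het DMSO, 411 was the far library, on the high side, for Cckar (1.82 CPM), Cckbr (9.64 CPM), Vgf (137 CPM), Scg2 (308 CPM) and Sst (22.1 CPM). The next libraries of that group were at 0 CPM for Cckar, 1.53 for Cckbr, 20.9 for Vgf, 76.4 for Scg2 and 0.709 for Sst. The same library had the lowest granule and Purkinje marker sums and the highest midbrain and brainstem marker sum of the 12. Library 425 of WT DMSO stood apart for Penk, at 45.3 CPM beside 47.4 to 47.7 CPM in the other 3, a small gap in a narrow group.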

How the results depend on the processing

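Of 513 refitted values of single genes, 482 kept their direction and their side of the threshold, 30 changed sign and 1 passed the threshold (Npy with DESeq2, which makes 1 gene of the set in place of 0). Without libraries 409 and 411, Het DMSO against WT DMSO gave -1.12 for Cckbr, -0.30 for Vgf, -0.39 for Scg2 and -2.36 for Sst, and Het Hit 2 against Het DMSO gave 1.47 for Cckbr, 0.95 for Vgf, 0.44 for Scg2 and -0.13 for Chgb. Without 425 and 426, Het Hit 2 against WT DMSO gave -0.043 for Cckbr. With single libraries left out, Het DMSO against WT DMSO ran from -0.056 to 2.75 for Cckbr, -0.036 to 1.79 for Vgf, -0.54 to 0.66 for Scg2, -2.44 to 1.24 for Sst and -0.79 to 0.040 for Crhr1. Het Hit 2 against Het DMSO ran from -2.06 to 0.42 for Cckbr, -1.45 to 0.69 for Vgf, -0.67 to 0.59 for Scg2, -0.80 to 3.26 for Sst and -0.76 to 0.078 for Crhr1. Het Hit 2 against WT DMSO ran from -0.27 to 1.35 for Cckbr, -0.015 to 1.01 for Vgf, -0.29 to 0.26 for Scg2, -0.082 to 1.34 for Sst and -0.077 to 0.031 for Penk. The cause was not tested beyond leaving these libraries out. Added after seeing the data, Het Hit 2 against Het DMSO turned from -0.30 to 0.042 (without 411) and 0.12 (without 409 and 411) for Cpe and from -0.33 to 0.26 (without both) for Adcyap1r1, and Muc3a passed the threshold without 411 (-1.89 in Het DMSO against WT DMSO).

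Over all genes, Het DMSO against WT DMSO gave 1 gene past the threshold, 42 with DESeq2, 18 without 409 and 411, 0 with only the groups compared and 0 without 425 and 426 (713 and 404 at an unadjusted p under 0.05), and 0 to 9 with single libraries left out. Het Hit 2 against WT DMSO gave 1, 23 with DESeq2, 4 with no filter, 2 with unstranded counts, 54 with only the groups compared, 90 without 409 and 411, 0 without 425 and 426 (133 at an unadjusted p under 0.05), and 0 to 14 with single libraries left out. Het Hit 2 against Het DMSO gave 0 in edgeR and DESeq2 under each alternative (unadjusted p under 0.05: 87 to 1201 genes). No paired analysis was possible because the numbers in the labels do not recur between groups. Depth limits Cckar, Cckbr, Npy and Sst, which had under 50 reads in some libraries.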

Other observations

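Among the other peptide receptors, Galr1, a galanin receptor gene picked after its values were seen, had the smallest adjusted p of the list in vehicle-treated knock-in against wild type (log2 fold change 1.25, SE 0.21; adjusted p 0.126 by edgeR), with 1.16 without 409 and 411 (edgeR adjusted p 0.152). It stood at 1.61 CPM in 413, 1.98 in 425, 1.78 in 426 and 2.15 in 431 of WT DMSO. In Het DMSO it was 4.68 CPM in 409, 4.75 in 411, 3.17 in 420 and 5.21 in 429, and in Het Hit 2 2.20 in 410, 2.77 in 421, 2.94 in 422 and 2.72 in 430. The 3 groups did not overlap, with Het Hit 2 between the others, and the log2 fold change of Hit 2-treated against vehicle-treated knock-in was -0.74 (SE 0.21; adjusted p 0.898 by edgeR). Without overlap between groups, 1.94% of all genes were higher in Het DMSO than in WT DMSO and 0.392% lower in Het Hit 2 than in Het DMSO.

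Adcyap1r1, the PACAP receptor gene, and Vipr2, a receptor gene for the related peptide VIP, were also picked after their values were seen. Adcyap1r1 averaged 135 ± 23.6 CPM in the WT group, 257.2 ± 101.5 CPM in the vehicle-treated knock-in and 204 ± 20.9 CPM in the Hit 2-treated one (each SD, n = 4), and all 4 Hit 2-treated libraries lay above all 4 wild-type ones. Its Het DMSO libraries 409 and 411 stood at 338 and 352 CPM and 420 and 429 at 168 and 171 CPM, beside 116 to 169 CPM in the WT group. Its log2 fold change was 0.93 for vehicle-treated knock-in against wild type (SE 0.25; adjusted p 0.616 by edgeR), 0.32 without 409 and 411 (edgeR adjusted p 0.835), and 0.59 for Hit 2-treated knock-in against wild type (SE 0.25; adjusted p 1.000 by edgeR). Vipr2 was lower in all 4 Het DMSO libraries (2.12 to 14.8 CPM) than in all 4 WT DMSO libraries (16.0 to 24.4 CPM), a log2 difference of -1.33 (SE 0.48; adjusted p 0.616 by edgeR), and -0.89 without 409 and 411 (edgeR adjusted p 0.877). Of all genes, 2.45% were lower in this way, and 2.9% were higher without overlap in Hit 2-treated knock-in than in wild type.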
